A study of Mus musculus with 6 samples.

Results

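Mitochondria translate the few proteins encoded by their own genome with a separate machinery, whose protein parts are all encoded in the nucleus and imported. The 32 genes described here encode its soluble enzymes and factors: 16 mitochondrial aminoacyl-tRNA synthetases, which attach an amino acid to its tRNA, and 16 factors that amidate or formylate a charged tRNA, carry out initiation, elongation, termination and ribosome recycling, or bind mitochondrial RNA. They were listed by name for this function, and all 32 were found among the 23951 genes of the table. The products of this machinery are subunits of the respiratory chain and of ATP synthase, so its genes are expressed in nearly all cells, mouse embryonic stem (ES) cells among them. Alkbh1, the gene knocked out in this study, encodes a dioxygenase of the AlkB family. As background, in human cells this enzyme is known to oxidise a methylated cytidine, placed by NSUN3 on the mitochondrial methionine tRNA, to a formylated cytidine.

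Messenger RNA was sequenced from 6 libraries of TT2 ES cells, a C57BL6 and CBA hybrid line, cultured feeder-free and taken at passage 5. Wild type (WT) had 2 libraries and the Alkbh1 knockout (KO) had 4, from 2 clones with 2 libraries each, so a difference between genotypes cannot be told apart from a difference between cell clones. The deposited table gives each gene 1 FPKM value (fragments per transcript kilobase, relative to all mapped fragments) per genotype, with the authors' log2 fold change (KO over WT), p and q. No library has a value of its own there, so levels carry no SD, the depth is unknown, and replicate spread is not given. The authors' p and q do not measure that spread by themselves. The labels do not say whether replicates were separate cultures.

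By the authors' deposited table Alkbh1 itself measured 33.9 FPKM for WT and 18.1 FPKM for KO (q = 0.0943), below the WT level but not past the threshold. The table gives it the same region as Slirp (chromosome 12, 88769027 to 88813249, mm9), a gene for an RNA-binding mitochondrial protein that fell from 551 to 265 FPKM per the authors' deposited table, so the reads of Alkbh1 are uncertain. All 8 ES cell markers examined were present, at 39.1 to 2099 FPKM in KO, but 6 of them were called lower and none higher, with a median log2 fold change of -0.67. Of all tested genes 28.4% were called lower, and of the decile with the highest mean FPKM 76.6% were. With equal FPKM totals in both genotypes the median of these markers would be -0.02. Relative to genes of like level, a scale explained below, it was 0.05. The lists for fibroblasts (6 genes), primitive endoderm (5) and trophoblast (5) summed to 7.66, 1.69 and 3.25 FPKM in WT and to 11.1, 1.48 and 3.10 FPKM in KO per the authors' deposited table. Most of the fibroblast sum was Thy1, with 6.43 FPKM in WT and 9.39 FPKM in KO. Of the genes in these lists, Col3a1 and Tpbpa were listed at 0 in WT. The part of other cell types in the results below was not tested, and in such bulk libraries fewer cells of a kind cannot be told apart from less RNA per cell.

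On the deposited scaling most of the machinery was lower in KO, and no member passed the threshold in the other direction. A gene is called here when the authors' q is under 0.05. Of the 32 members, all of which were tested, 19 were called lower and none higher, while 13 were not called. Among all 14095 tested genes, 28.4% were called lower and 22.4% higher. Within the members' own range of mean level (1.62 to 289 FPKM), these shares were 32.8% and 18.0% of 10632 genes. At an unadjusted p under 0.05 the authors' test, of Cuffdiff layout, had 20 members lower and 1 higher. The median log2 fold change of the members was -0.51, against -0.06 over all tested genes with a finite value and -0.15 over those in the members' range of level. The direction rests on how the genotypes were scaled: with equal FPKM totals in both, each log2 fold change is 0.65 higher, the members' median turns to 0.14, and the 19 calls split into 9 below and 10 above 0.

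Fold changes in this comparison followed level. The median log2 fold change was 0.69 in the decile of genes with the lowest mean FPKM and -0.72 in that with the highest. A level-centred value is therefore used as well: the log2 fold change minus the median of the gene's own decile by level, which no single scaling factor alters while the classes are kept. Of the 32 members 25 lay below 0 on this scale, with a median of -0.15, a range from -0.97 (Yars2) to 0.51 (Iars2), and 0 as the median of all genes by construction. The share of all genes called lower rose with level, from 5.46% in the lowest decile to 76.6% in the highest. All 4 members in the highest decile were called lower, and 4 of 5 in decile 9, where 59.5% of all genes were. In decile 8 it was 1 of 3 members beside 44.9% of all genes, in decile 7 (11.9 to 19.6 FPKM) 6 of 8 beside 31.3%, and in decile 6 it was 3 of 6 beside 22.4%. Of lower levels, none of 4 members in decile 5 was called lower beside 14.0% of all genes, 1 of 1 in decile 4 beside 12.9%, and none of 1 in decile 3 beside 8.72%.

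**Figure D1:**
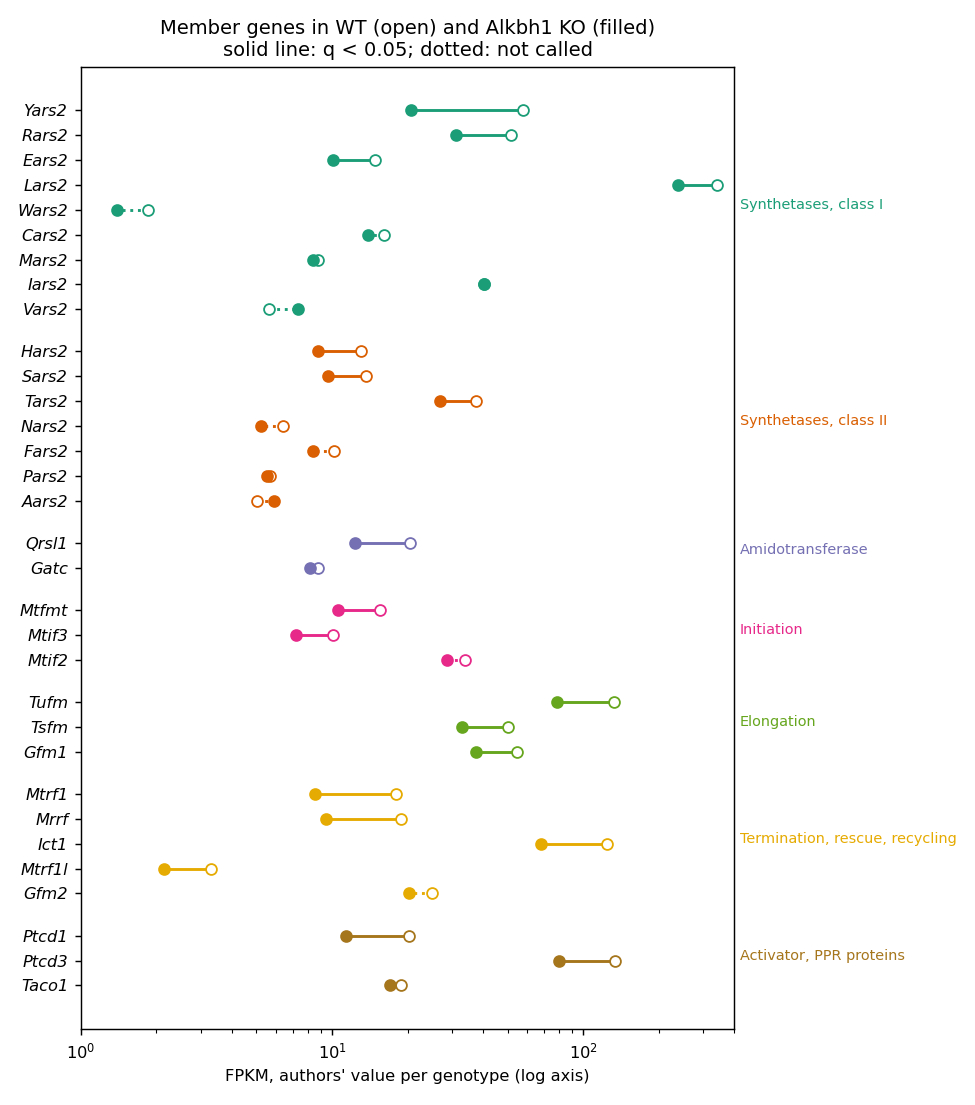
Deposited FPKM of the 32 members in WT (open circles) and KO (filled circles) on a log axis, grouped by role, with a solid line for genes at q under 0.05 and a dotted line for the rest. KO lies to the left of WT for 29 members, and to the right for Vars2, Aars2 and, with near-equal values, Iars2.

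For each count by role below, the share of all tested genes called lower was 28.4%, or 5.46% to 76.6% by decile of level. Synthetases fall into classes I and II, which differ in the fold of the catalytic domain. Of the 9 class I genes 4 were called lower and 5 not called, with a median log2 fold change of -0.41 as deposited, which turns to 0.24 with equal totals, and a level-centred median of -0.05. The tyrosine enzyme gene Yars2 (chromosome 16, 16303057 to 16309733, mm9) measured 57.8 FPKM for WT and 20.7 FPKM for KO per the authors' deposited table. This 2.80-fold fall (log2 fold change -1.49, q = 0.000206) was the largest among the 32 members as deposited, and it stayed largest on the level-centred scale at -0.97. Rars2, the arginine enzyme gene, fell from 51.5 to 31.2 FPKM per the authors' deposited table (log2 fold change -0.72, q = 0.000206). Genes in its decile had a median of -0.51, and its level-centred value was -0.21.

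Ears2 and Lars2 were the other class I genes called lower. Ears2 encodes the enzyme that charges the tRNAs of glutamate and, by misacylation, of glutamine, and it fell from 14.9 to 10.1 FPKM per the authors' deposited table (log2 fold change -0.57, q = 0.00424), with a level-centred value of -0.42. The leucine enzyme gene Lars2 was the most abundant member, with 341 FPKM for WT and 238 FPKM for KO per the authors' deposited table (log2 fold change -0.52, q = 0.00271). That fall was smaller than the median of its decile, with a level-centred value of 0.20. With equal totals Ears2 and Lars2 would stand above 0, and Yars2 and Rars2 below it.

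Among the class I genes not called, Cars2 (cysteine) measured 16.04 FPKM for WT and 13.9 FPKM for KO per the authors' deposited table. Mars2, for methionine, had 8.82 and 8.37 FPKM there (log2 fold change -0.08, q = 0.736). Level-centred, Cars2 stood at -0.05 and Mars2 at -0.04. The authors' deposited table gives Iars2, for isoleucine, 40.3 and 40.4 FPKM. These are near-equal values, although genes in the same decile as Iars2 had a median of -0.51. Iars2 shares its region with Rab3gap2. Counted on either strand, 36.6% of the 50-base words of the longest annotated Iars2 transcript also occur in transcripts of Rab3gap2. The reads of Iars2 are therefore uncertain. For Cars2, 17.8% of the words also occur in transcripts of Naxd. Vars2, the valine enzyme gene, was the highest in fold change of all members and the nearest to the threshold among those not called, with 5.61 FPKM for WT and 7.30 FPKM for KO per the authors' deposited table (log2 fold change 0.38, level-centred 0.29, q = 0.0521). Wars2 (tryptophan) was the least abundant member, at 1.85 and 1.39 FPKM per the authors' deposited table (q = 0.0765). Genes of its decile had a median of 0.35, and its level-centred value was -0.76.

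Promoters of 3 class I genes are shown because they differ in fold change and in the motifs they hold. RefSeq promoter sequences (GRCm38.p6, from 250 bases before to 50 after the start site) were found for 29 members, 1 of them (Ict1) through its current name Mrpl58. They were searched on both strands for TGCGCANGC, part of the site of NRF1, a regulator of nuclear genes for mitochondrial proteins, for CCGGAAG, bound by ETS factors, and for TGATGNAA, part of the composite ATF4 site. The stretches below run from 150 bases before to 10 after the start site, 5′ to 3′ on the plus strand, with NRF1 and ETS matches in capitals. They lie at chr4:34614807-34614966 for Rars2, chr1:55237027-55237186 for Mars2 and chr16:16302815-16302974 for Yars2.
Rars2: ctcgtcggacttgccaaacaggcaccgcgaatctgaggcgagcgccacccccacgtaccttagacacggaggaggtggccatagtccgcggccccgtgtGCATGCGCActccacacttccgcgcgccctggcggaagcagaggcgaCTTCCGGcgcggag
Mars2: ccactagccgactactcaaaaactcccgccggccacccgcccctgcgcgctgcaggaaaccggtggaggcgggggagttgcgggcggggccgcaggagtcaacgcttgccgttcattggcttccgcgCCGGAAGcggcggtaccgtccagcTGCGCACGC
Yars2: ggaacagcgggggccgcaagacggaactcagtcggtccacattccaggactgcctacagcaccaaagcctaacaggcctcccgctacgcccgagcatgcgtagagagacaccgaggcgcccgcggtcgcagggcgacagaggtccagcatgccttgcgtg

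Rars2, called lower, and Mars2, not called, both held a match to the NRF1 and to the ETS letters. Yars2, with the largest fall, held neither in its searched window. The NRF1 letters occurred in 4 of the 29 member genes (Iars2, Mars2, Mtfmt and Rars2), which is 13.8%, against 9.49% of 10405 tested genes matched by symbol and 4.16% of all 32851 promoters. Of these 4 genes 2 were called lower, beside 28.4% of all tested genes. The median log2 fold change of the 4 was -0.31, against -0.52 for the members without the letters. The ETS letters occurred in 8 members (27.6%), against 19.1% of tested genes and 8.86% of all promoters. These members were Cars2, Gfm1, Ict1, Mars2, Mtif2, Rars2, Sars2 and Tufm. Their median log2 fold change of -0.52 equalled that of the members without the letters to 2 decimals. Among the 8, 5 were called lower, beside the same 28.4%. The share called lower among all tested genes holding either set of letters was not computed. No NRF1 match overlapped an ETS match in these members. The ATF4 letters were in none of the 29, and in 2.70% of tested genes and 3.97% of all promoters.

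Of the 7 class II synthetase genes 3 were called lower and 4 not called, with a median log2 fold change of -0.29, which turns to 0.36 with equal totals and to 0.07 after recentring on the genes at or above the median level. On the level-centred scale their median was -0.24, with 6 of 7 below 0. The difference between the classes was not tested. The histidine enzyme gene Hars2 fell from 13.1 to 8.83 FPKM per the authors' deposited table (log2 fold change -0.57, q = 0.00231). Sars2, for serine, fell from 13.7 to 9.66 FPKM there (authors' deposited table, log2 fold change -0.51, q = 0.0111). Tars2, for threonine, was the most abundant of the class and fell from 37.6 to 27.0 FPKM per the authors' deposited table (log2 fold change -0.47, q = 0.0064). With equal totals all 3 would stand above 0, and none reached a 1.5-fold difference as deposited. Their level-centred values were -0.53 for Hars2, -0.47 for Sars2 and -0.13 for Tars2.

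The class II genes not called included the asparagine enzyme gene Nars2, with 6.39 FPKM for WT and 5.21 FPKM for KO per the authors' deposited table, and the phenylalanine enzyme gene Fars2, at 10.2 and 8.41 FPKM. Pars2, for proline, differed least in this class, with 5.65 and 5.51 FPKM per the authors' deposited table (log2 fold change -0.04, q = 0.892). Aars2, for alanine, had 5.04 FPKM in WT and 5.88 FPKM in KO per the authors' deposited table (log2 fold change 0.22, q = 0.303). Level-centred, Nars2 stood at -0.38, Fars2 at -0.24, Pars2 at -0.12 and Aars2 at 0.14. The 4 least abundant class II genes in WT were Aars2, Pars2, Nars2 and Fars2, and these were the 4 not called.

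Each mitochondrial synthetase gene was set against the gene of the cytosolic enzyme for the same amino acid, with Eprs, whose product charges glutamate and proline tRNAs, used for Ears2 and Pars2 and Farsa for Fars2. In 7 of the 16 pairs both genes were called lower, in 3 the cytosolic gene alone was (those of Fars2, Nars2 and Pars2), in none the mitochondrial gene alone, and in 6 neither was called. Beside these counts, 28.4% of all tested genes were called lower, and 76.6% of those in the highest decile by level. That decile held 16 of the 20 genes on the cytosolic synthetase list. The median difference in log2 fold change, mitochondrial minus cytosolic, was 0.12 as deposited, with 11 pairs above 0 and 5 below. This does not depend on scaling, but it does on level. Cytosolic genes were more abundant, at a median of 7.45 times the mitochondrial gene in WT, and on the level-centred scale the median difference was -0.47, with the mitochondrial gene lower in 14 pairs. No test was made of these differences. As deposited, Yars2 stood furthest below its partner, at a difference of -0.97, while on the level-centred scale Wars2 did, at -1.16. The 2 tyrosine genes were near-equal in WT, with 57.8 FPKM for Yars2 and 56.8 FPKM for Yars per the authors' deposited table, and stood at 20.7 and 39.8 FPKM in KO. Lars2 was the other exception to the higher level of cytosolic genes in WT, with 341 FPKM against 136 FPKM for Lars per the authors' deposited table.

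**Figure D2:**
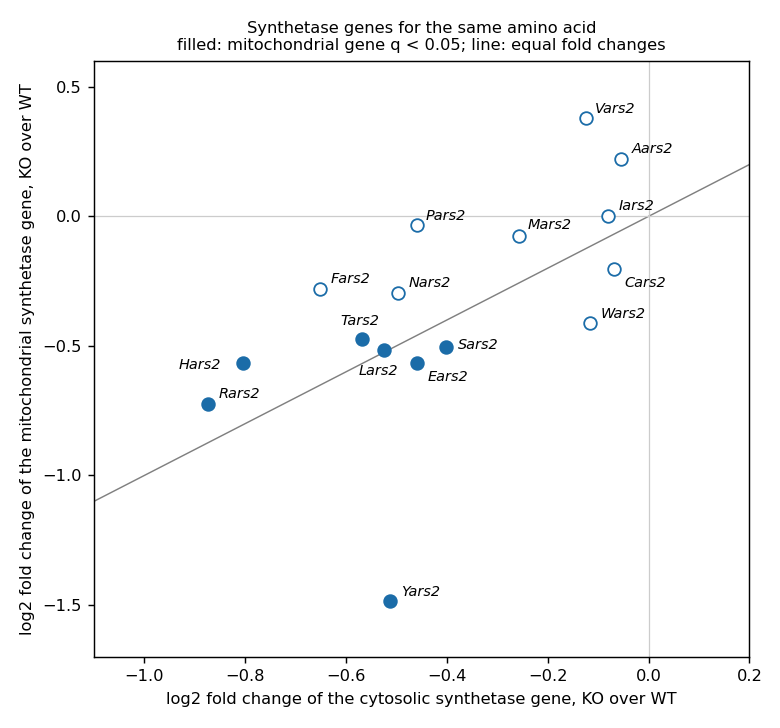
Log2 fold change (KO over WT) of each mitochondrial synthetase gene (vertical axis) against that of its cytosolic counterpart (horizontal axis), in 16 pairs, with filled circles where the mitochondrial gene has q under 0.05. Points near the diagonal have like fold changes in both genes, and Yars2, at -0.97 relative to its partner, lies below it.

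The amidotransferase complex converts the misacylated glutamyl-tRNA of glutamine to glutaminyl-tRNA, since mitochondria use no glutaminyl-tRNA synthetase of their own. Its catalytic subunit gene Qrsl1 fell from 20.5 to 12.3 FPKM per the authors' deposited table (log2 fold change -0.74, level-centred -0.59, q = 0.00056). Gatc, for the small subunit, measured 8.82 FPKM for WT and 8.19 FPKM for KO per the authors' deposited table and was not called (log2 fold change -0.11, level-centred -0.07, q = 0.662). The third subunit, listed as Pet112, is not among the 32 and was added here after its value was seen. It fell from 10.1 to 7.03 FPKM per the authors' deposited table (log2 fold change -0.52, q = 0.00881). With equal totals Qrsl1 would stay below 0, while Ears2 and Pet112 would not.

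Initiation genes were called lower in 2 of 3 cases, with a median log2 fold change of -0.48 that turns to 0.17 with equal totals and a level-centred median of -0.40. Mtfmt, which encodes the enzyme that formylates the methionyl-tRNA used for initiation, fell from 15.5 to 10.6 FPKM per the authors' deposited table (log2 fold change -0.55, level-centred -0.40, q = 0.0046). Mtif3, an initiation factor gene, fell from 10.1 to 7.21 FPKM per the authors' deposited table (log2 fold change -0.48, level-centred -0.45, q = 0.0293), the call nearest to the threshold from within. Its region is shared with Gtf3a, and 27% of its words also occur in transcripts of Gtf3a, so its reads are uncertain. Mtif2, for the GTPase that places the initiator tRNA on the ribosome, measured 34.0 FPKM for WT and 28.7 FPKM for KO per the authors' deposited table and was not called (log2 fold change -0.24, level-centred 0.10, q = 0.19).

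All 3 elongation genes were called lower, and their median log2 fold change was -0.62, which turns to 0.04 with equal totals. Tufm, for the factor that delivers charged tRNA to the ribosome, fell from 132 to 78.7 FPKM per the authors' deposited table (log2 fold change -0.75, q = 0.000206). Of the words of its transcript, 68.2% also occur in the annotated transcripts of another gene, Gm9755, so its reads are uncertain. Tsfm, for the nucleotide exchange factor of Tufm, fell from 50.4 to 32.9 FPKM per the authors' deposited table (log2 fold change -0.62, q = 0.00119). Gfm1, for the translocation factor, fell from 54.3 to 37.6 FPKM per the authors' deposited table (log2 fold change -0.53, q = 0.00218). On the level-centred scale the 3 genes lay between -0.10 and -0.02, close to the median fall of genes of their level.

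The genes for ending translation and reusing ribosomes held the lowest median of the 7 role groups, with 4 of 5 called lower. Their median log2 fold change was -0.88, which remains below 0 with equal totals (-0.23), and their level-centred median was -0.84. With 1 added to each FPKM that level-centred median was -0.63. Over genes sharing no region, 3 of the group were called lower. Mtrf1, a release factor gene (chromosome 14, 79797578 to 79823457, mm9), fell from 18.0 to 8.52 FPKM per the authors' deposited table (log2 fold change -1.08, q = 0.000206). Its paralogue Mtrf1l, for the release factor that reads the standard stop codons, fell from 3.30 to 2.15 FPKM per the authors' deposited table (log2 fold change -0.62, q = 0.00605). Mtrf1l had the lowest level of the called members. Genes of its decile had a median of 0.23, and its level-centred value was -0.85. With equal totals Mtrf1l would stand at 0.04.

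Ribosome recycling and rescue genes differed among themselves. Mrrf, for the recycling factor (chromosome 2, 35971598 to 36045803, mm9), fell from 18.9 to 9.46 FPKM per the authors' deposited table (log2 fold change -0.996, q = 0.00104), with a level-centred value of -0.84. It shares its region with Rbm18, which also fell, from 23.7 to 14.8 FPKM per the authors' deposited table. As 14.7% of the words of Mrrf also occur in transcripts of other genes, Rbm18 among them, the reads of Mrrf are uncertain. Gfm2, for the GTPase that works with the recycling factor, measured 25.1 FPKM for WT and 20.2 FPKM for KO per the authors' deposited table and was not called (log2 fold change -0.31, level-centred 0.03, q = 0.228). Ict1, for a peptidyl-tRNA hydrolase that frees stalled ribosomes and is built into the large ribosomal subunit, fell from 125 to 67.7 FPKM per the authors' deposited table (log2 fold change -0.88, q = 0.000206). At that high level most genes were lower, and its level-centred value was -0.16, unlike those of Mtrf1, Mtrf1l and Mrrf.

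The last group, of a translational activator and pentatricopeptide proteins, had 2 of 3 genes called lower and a median log2 fold change of -0.74, or -0.08 with equal totals, and a level-centred median of -0.02. Ptcd3, which encodes a pentatricopeptide protein of the small mitochondrial ribosomal subunit, fell from 134 to 80.2 FPKM per the authors' deposited table (log2 fold change -0.74, q = 0.000206). Its level-centred value was -0.02. Ptcd1, for an RNA-binding protein of the same family, fell from 20.2 to 11.4 FPKM per the authors' deposited table (log2 fold change -0.83, q = 0.00676), and its level-centred value was -0.68. Ptcd1 shares its region with Bud31, which fell from 171 to 70.5 FPKM per the authors' deposited table. As 6.45% of the words of Ptcd1 also occur in transcripts of Bud31, the reads of Ptcd1 are uncertain. Taco1, which promotes synthesis of a cytochrome c oxidase subunit, measured 18.8 FPKM for WT and 17.1 FPKM for KO per the authors' deposited table and was not called (log2 fold change -0.14, level-centred 0.01, q = 0.515). For Taco1, 14.7% of the words also occur in transcripts of Taco1os.

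**Figure D3:**
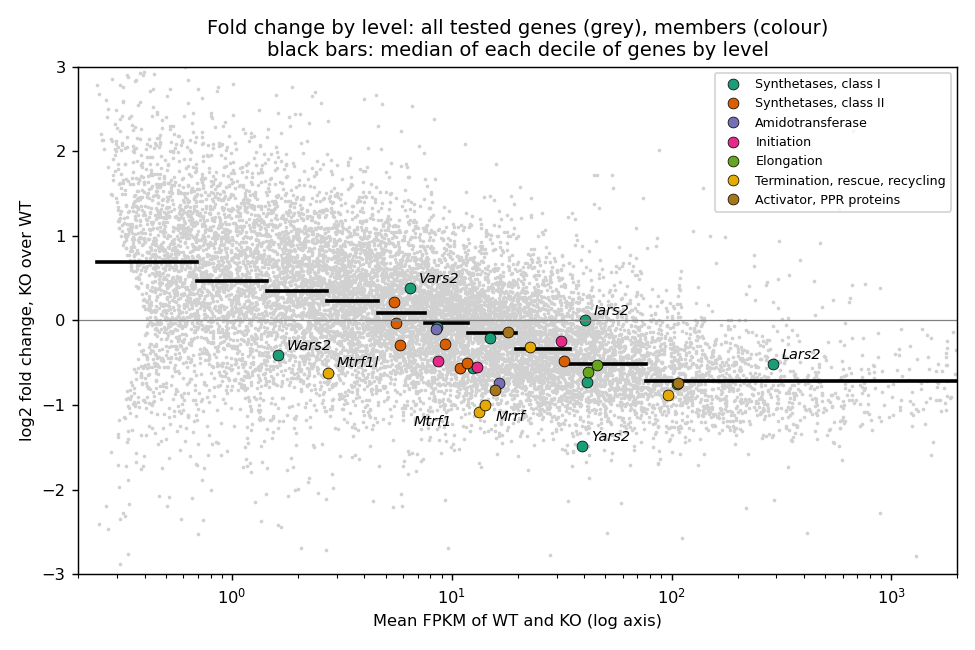
Log2 fold change (KO over WT) against mean FPKM (log axis) for all tested genes (grey) and the 32 members (coloured by role), with black bars for the median of each decile of genes by level; 103 tested genes lie outside the frame. Yars2, Mtrf1, Mrrf, Mtrf1l and Wars2 lie below the bar at their level, at -0.76 to -0.97 relative to it, and Iars2 lies 0.51 above it.

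Across roles, 12 of the 16 factors and 7 of the 16 synthetases were called lower as deposited. Of all tested genes 28.4% were, a share that ran from 5.46% to 76.6% across the deciles of level. The median log2 fold changes were -0.62 for the factors and -0.35 for the synthetases, which turn to 0.04 and 0.30 with equal totals. On the level-centred scale the medians were -0.13 and -0.17. The factors were the more abundant set, with a WT median of 20.4 FPKM against 13.4 FPKM per the authors' deposited table. The difference between these sets was not tested.

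Related gene lists placed the members among their pathway. Mitochondrial ribosomal protein genes were called lower in 74 of 77 cases and higher in none, led by Mrpl47 (from 143 to 53.1 FPKM) and Mrps18c (from 283 to 111 FPKM) per the authors' deposited table. These genes were abundant, with 40 of the 77 in decile 9 and 26 in the highest, where 59.5% and 76.6% of all tested genes were called lower (28.4% over all levels). Of these, 39 and 26 were called lower. Their median log2 fold change of -0.85 stayed below 0 with equal totals (-0.20). Of 21 genes for mitochondrial tRNA processing and modification, 17 were called lower and 1 higher, with a median of -0.77, or -0.12 with equal totals. Decile 8 holds 6 of them and decile 9 holds 5, all called lower, beside 44.9% and 59.5% of all tested genes. Trnt1, which adds the terminal CCA to tRNAs, fell from 63.9 to 29.7 FPKM per the authors' deposited table. Trmt10c, part of the enzymes that cut and methylate mitochondrial tRNA, fell from 57.4 to 27.1 FPKM per the authors' deposited table. Nsun3, the methyltransferase gene that acts on the methionine tRNA before ALKBH1 does, was the gene that rose, from 1.38 to 2.66 FPKM per the authors' deposited table (log2 fold change 0.94, q = 0.00119). Its level-centred value was 0.59.

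Of 24 other genes for mitochondrial translation and RNA, 18 were called lower and none higher, with a median of -0.62 that turns to 0.04 with equal totals. Decile 7 holds 5 of them, all called lower, and decile 8 holds 9, with 7 called lower, beside 31.3% and 44.9% of all tested genes. Fastkd2, for an RNA-binding protein of mitochondrial ribosome assembly, fell from 40.0 to 18.2 FPKM per the authors' deposited table, and Ptrh2, a peptidyl-tRNA hydrolase gene, from 34.7 to 16.2 FPKM. The cytosolic synthetase genes were called lower in 14 of 20 cases and higher in none, with a median of -0.48 that turns to 0.17 with equal totals. In the highest decile 13 of their 16 genes there were called lower, beside 76.6% of all tested genes, and in decile 9 it was 1 of 3 beside 59.5%. Rars fell from 299 to 163 FPKM and Hars from 100.02 to 57.3 FPKM per the authors' deposited table. On the level-centred scale the cytosolic list had a median of 0.22, against -0.17 for the mitochondrial synthetases, -0.32 for the ribosomal proteins, -0.40 for the tRNA list and -0.38 for the other factors. Differences between lists were not tested.

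**Figure D4:**
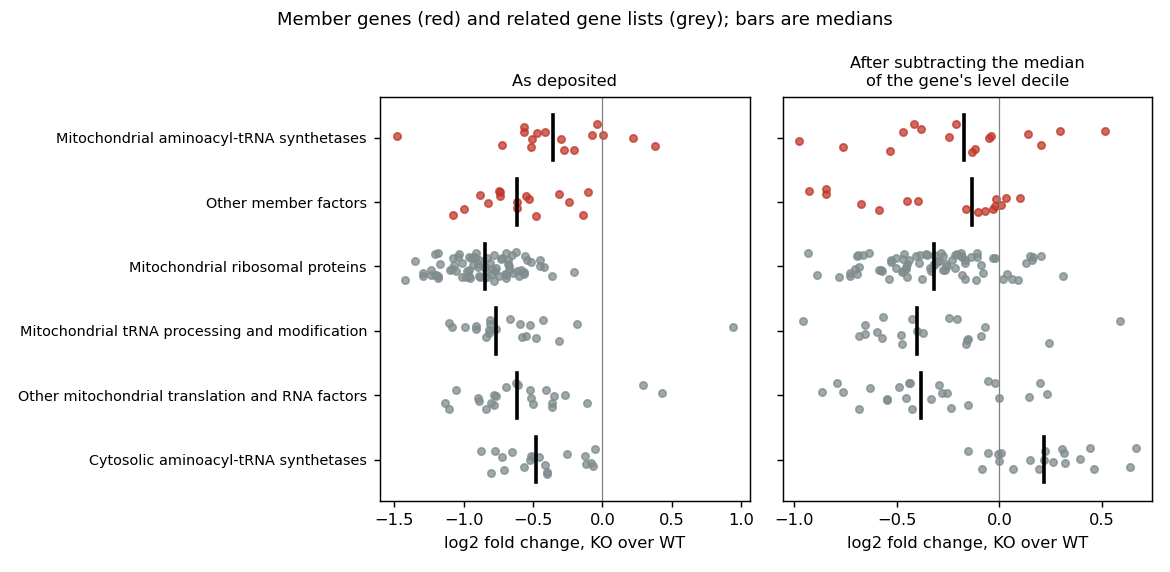
Log2 fold change (KO over WT) of each gene (points) and list medians (bars), as deposited on the left and level-centred on the right, for the members (red) and related lists (grey). The cytosolic synthetases shift from a median of -0.48 to 0.22 and the mitochondrial synthetases from -0.35 to -0.17; with equal totals all points on the left would move 0.65 to the right.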

How the data were processed

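Strand-specific messenger RNA libraries were made from total RNA, per the labels' protocols, and aligned with TopHat2 to mm9, per the submitters' processing notes. The annotation and the scaling between libraries are not given in the sources used here. Per the file headers, the deposited table is laid out as Cuffdiff writes gene tests, with FPKM per genotype and the authors' log2 fold change, test statistic (a score), p-value and q-value. Positions are printed as that table gives them. No test was run anew. Genes were called at the authors' q under 0.05 and split by sign. The smallest deposited p-value, 5e-05, is shared by 6 members. Level classes were deciles of tested genes by mean of the 2 FPKM values. Shared 50-base words came from GENCODE M21 transcripts, used for names and letters only, and were counted on either strand. How far strand-specific reads would be mixed by them was not tested. The summary code was run on simulated fold changes, where it returned a shift put into the members. The q-values there were set in advance, so this checked the code and not the calls. The members and lists were chosen with earlier results of these data known. Named genes were all members, Alkbh1 and up to 2 called genes per direction and list. Pet112, Yars, Lars, Rbm18, Bud31 and Slirp were named beside a member or Alkbh1 after their values were seen. So were the genes sharing a region or words with a member, the marker gene Thy1 and the marker genes at 0. Some single-gene results are not reported here. A planned search for protein motifs was not made. Python 3.11.15, NumPy 2.4.6, pandas 2.3.3, SciPy 1.17.1 and Matplotlib 3.10.9 were used.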

Additional observations from a re-analysis of the deposited data

How the results depend on the processing

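With equal FPKM totals the 19 calls split into 9 below and 10 above 0, the members' median became 0.14, and 2 of 7 role groups kept a median below 0. The called members then above 0 were Tars2 (0.18), Mtif3 (0.17), Sars2 (0.15), Lars2 (0.14), Gfm1 (0.12), Mtfmt (0.10), Ears2 (0.0857), Hars2 (0.0855), Tsfm (0.0373) and Mtrf1l (0.0353). List medians became 0.17 for cytosolic synthetases, -0.12 for tRNA processing, 0.0361 for other mitochondrial factors and -0.20 for ribosomal proteins. Recentring on genes at or above the median level gave -0.14 for the members, and -0.11, -0.40, -0.25 and -0.48 for those lists in the same order.

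A 1.5-fold minimum left 11 of the 32 members and 6 of the 20 cytosolic synthetases lower. The shares of all tested genes under this and the following settings were not computed. At q under 0.05 alone 28.4% of all tested genes were called lower. At q under 0.1 Vars2 became the 1 member called higher and Wars2 was called lower, and at q under 0.01 Sars2 and Mtif3 were no longer called. Means in place of medians gave -0.26 for the members' level-centred value and -0.63 for the log2 fold change of tRNA processing as deposited, without level-centring. The median of that same measure for tRNA processing was -0.59 over genes sharing no region. A value counted as moved past 0.1 on the log2 scale, since no replicate spread is known, and a count past 1.5 times, and the cause of each change beyond its construction was not tested. Of the remaining settings for these summaries, 97 kept direction and stayed within those limits, among them 15 members lower over genes sharing no region, 12 tRNA processing genes lower there, and 10 cytosolic synthetases lower at q under 0.01. The restriction to genes sharing no region leaves out 7 of the members and makes the lists smaller, so its counts are not only losses of calls. Some of the 97 could not change, since a list with no gene called higher gains none under a stricter threshold. Leaving out single libraries was not run, as the table holds no library values. No paired analysis was possible because the table has 1 pooled value per genotype.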

Other observations

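Across the 32 members the log2 fold change fell with mean FPKM (Spearman's rho -0.45, against -0.55 over 14039 tested genes) and rose with the length of the longest coding transcript in GENCODE M21 (rho 0.38), with a weaker relation to its GC content (rho 0.19). These are descriptions across genes, which share the same libraries and are not independent replicates. Regions are shared with other genes in the table for 7 members (Iars2, Wars2, Mtif3, Gfm1, Mrrf, Gfm2 and Ptcd1). By FPKM in the authors' deposited table, Yars2 went from rank 5 among the members in WT to rank 11 in KO, while Lars2 had rank 1 in both.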
